A study of Mus musculus with 24 samples.

Results

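The genes described here make, sense and remove nitric oxide (NO), cyclic GMP and cyclic AMP. They are the rows of the array whose gene symbol is that of a nitric oxide synthase (Nos1 to Nos3), a guanylyl cyclase (Gucy1 and Gucy2), a cGMP-dependent protein kinase (Prkg1, Prkg2), a cyclic nucleotide phosphodiesterase (Pde), an adenylyl cyclase (Adcy) or a subunit of protein kinase A (Prkac, Prkar). They number 52 of the 19572 rows that carried a gene, each gene with 1 row: 3 synthases, 3 soluble and 5 membrane guanylyl cyclase genes, 2 cGMP kinases, 23 phosphodiesterases, 10 adenylyl cyclases, and 2 catalytic and 4 regulatory subunits of protein kinase A. The alpha1 subunit of soluble guanylyl cyclase and Pde4d were not analysed here.

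Total RNA was hybridised to 24 arrays, from the cerebellum, the hippocampus and the cerebral cortex of 8 mice. Of these mice 4 were wild type (WT) and 4 lacked glutamine synthetase in the liver (KO), the enzyme that binds ammonia to glutamate. The series asks how raised blood ammonia alters transcripts of the brain. The sources used here do not give strain, age, sex or the promoter that restricts the deletion to liver, and the row of the deleted gene was not analysed here. Values are deposited log2 values, on which a difference of 1 is a 2-fold difference. They come from different probes for each gene, so levels are compared between groups and not between genes.

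NO made by a synthase binds the haem of soluble guanylyl cyclase and raises cGMP, which activates cGMP-dependent kinases, while adenylyl cyclases make cAMP, the activator of protein kinase A. Phosphodiesterases break both messengers down, and each family prefers cAMP, cGMP or both. In the cerebellum the pathway from glutamate receptors through neuronal NO synthase to cGMP is a known feature of Purkinje and granule cells, and in rats with raised ammonia it has been studied as a site of disturbance.

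Arrays of a group correlated with each other at 0.980 to 0.996, and no array was a copy of another. KO 1 and KO 4 of the cortex carried markers of the olfactory bulb: over the 13 measured genes of that list they averaged 11.72 and 11.10, while the 6 remaining arrays of the region lay between 8.17 and 8.71, and 13 of 13 were on the higher side in KO cortex (median 1.53). KO 3 of the cerebellum carried brainstem markers, with a mean over 14 genes of 10.32 against 8.23 to 8.69 in the other 7 cerebellar arrays (12 of 14 on the higher side in KO cerebellum, median 0.55), and its 14 granule and Purkinje cell markers averaged 13.82 against 14.88 to 15.45. Choroid plexus markers were on the lower side in KO cerebellum for 8 of 8 genes (median -0.47), with single arrays between 8.75 and 11.91 in WT. The 4 KO arrays averaged 8.88, 8.82, 11.47 and 8.77 over these markers, so KO 3 was high for them too. Hippocampal arrays were also spread over the choroid plexus markers. They averaged 9.38, 9.83, 11.23 and 11.32 in WT and 12.48, 10.71, 9.54 and 8.86 in KO. The part of such tissue in the hippocampal values was not tested. The arrays of each region carried that region's markers: hippocampus averaged 10.94 to 11.65 over 7 dentate and hippocampal markers and cortex 9.25 to 9.76, cortex averaged 11.53 to 12.27 over 7 neocortical markers, and vessel markers averaged 9.54 in KO 3 and 9.10 to 9.23 in the other cerebellar arrays. The main counts, and the values of many named genes that moved, are also given without KO 1 and KO 4 of cortex and KO 3 of cerebellum. In pieces of tissue, fewer cells of a type and less RNA per cell cannot be told apart.

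The regions of WT animals were compared to see where each part of the pathway is expressed. A gene was called different when limma gave an adjusted p under 0.05 over all 19572 rows and the difference was at least 2-fold. By that rule 22 of the 52 genes (42.3%) differed in at least 1 pair of regions, against 12.3% of all genes. They comprised 12 of 23 phosphodiesterases, 3 of 10 adenylyl cyclases, both cGMP kinases, 2 of 4 regulatory subunits of protein kinase A, 1 of 3 NO synthases, 1 of 3 soluble and 1 of 5 membrane guanylyl cyclases, and neither catalytic subunit. Between cerebellum and cortex 20 genes (38.5%) were called, against 9.98% of all genes: 7 were higher in cerebellum (all genes 4.51%) and 13 lower (5.47%). Between cerebellum and hippocampus 16 were called against 9.83% of all genes, 5 higher (3.98%) and 11 lower (5.85%). Hippocampus and cortex differed in 2, both higher in hippocampus, where 1.36% of all genes differed and 0.746% were higher. Cerebellum stood above both other regions for 5 genes (Adcy1, Pde1c, Pde3b, Pde5a, Pde9a) and below both for 9 (Adcy2, Adcy5, Pde1a, Pde1b, Pde2a, Pde4a, Pde8b, Prkar1b, Prkar2b). Without the 2-fold minimum 28 genes passed between cerebellum and cortex, where 35.8% of all genes did, 29 between cerebellum and hippocampus (34.9%) and 7 between hippocampus and cortex (7.09%).

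**Figure D1:**
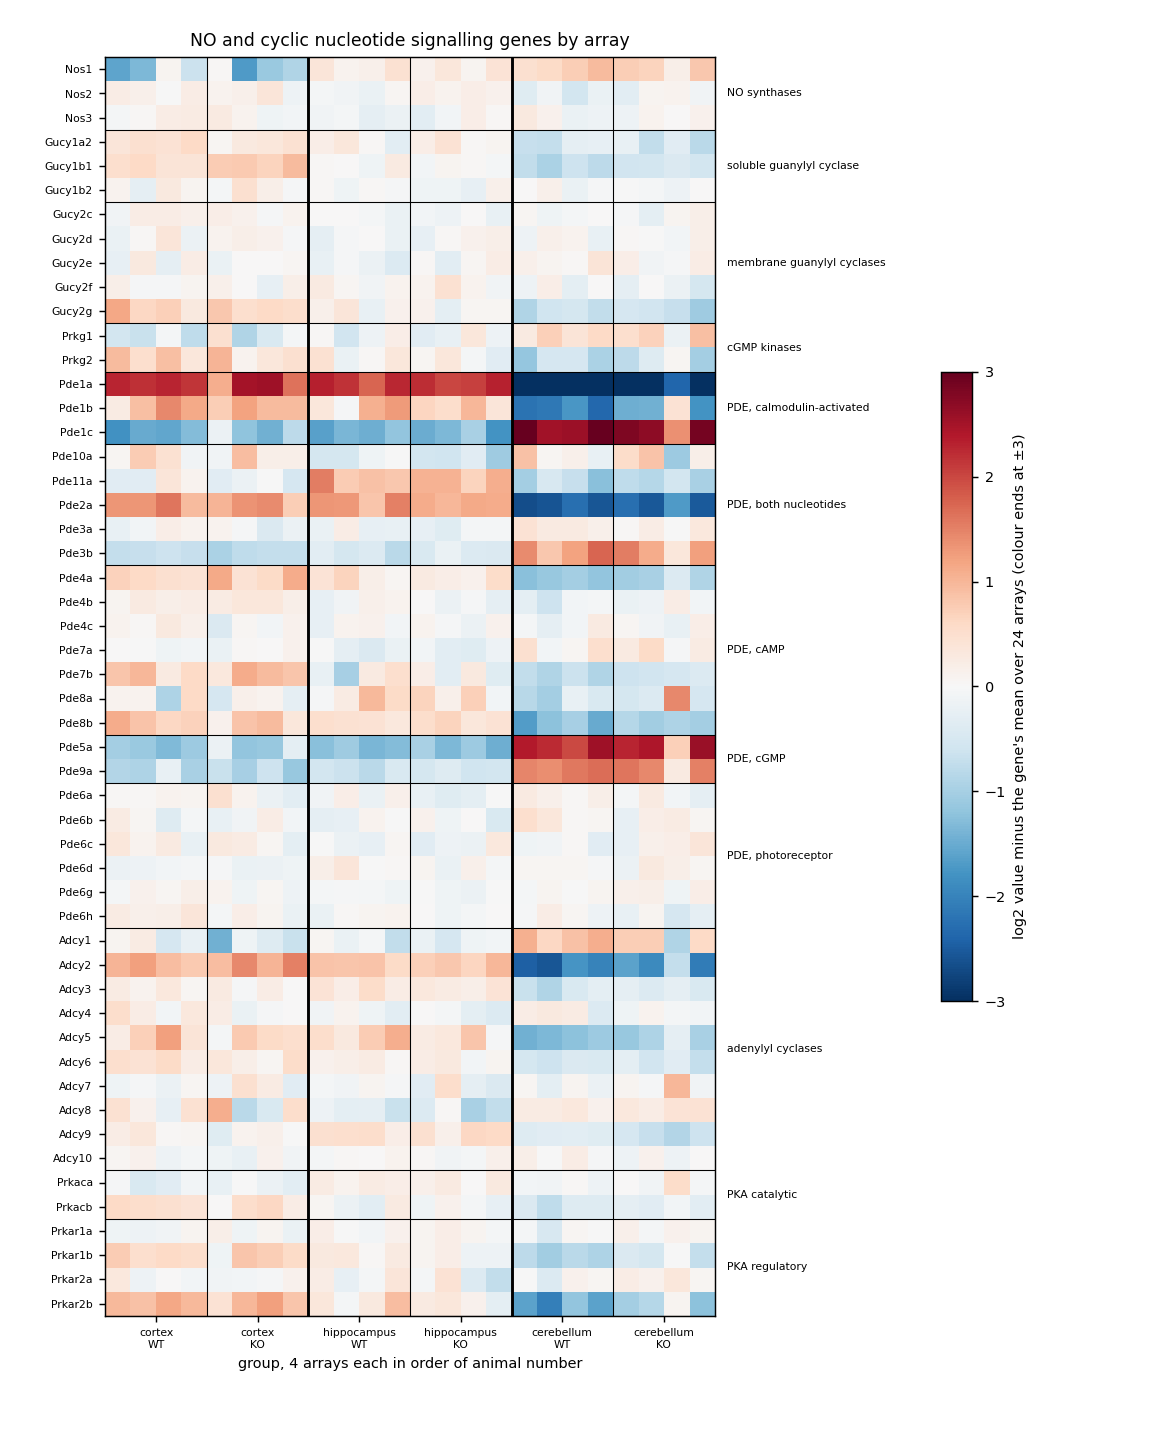
Values of all 52 genes on the 24 arrays, each as its log2 value minus the gene's mean over the 24 arrays, with genes in rows grouped by role and arrays in columns grouped by region and genotype. The cerebellar columns carry the strongest reds (Pde1c, Pde5a) and blues (Pde1a, Pde2a), except in the third cerebellar KO array, which is paler for these genes.

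Among the NO synthases the neuronal enzyme Nos1 was the one called. Nos1 read 9.59, 9.83, 11.25 and 10.54 in the 4 WT cortex arrays, 11.53, 11.29, 11.33 and 11.63 in hippocampus, and 11.67, 11.75, 11.91 and 12.13 in cerebellum. The cortex arrays were spread over more than 1 unit, and all lay below every hippocampal and cerebellar array. Cerebellar Nos1 exceeded cortical Nos1 by 1.56 (SE 0.28, limma adjusted p = 7.32e-05, 4 arrays in each group) and higher in hippocampus than in cortex by 1.14 (adjusted p = 0.0124). The latter call was lost without the WT 1 array of cortex (0.91, adjusted p = 0.0692) or the WT 2 array (0.99, adjusted p = 0.0624). Cerebellum and hippocampus differed by 0.42 (adjusted p = 0.284), though their arrays did not overlap. Nos3, the endothelial enzyme, averaged 8.43, 8.17 and 8.34 in WT cortex, hippocampus and cerebellum, and no pair passed. Nos2, the inducible enzyme of immune cells, had its highest group mean at 6.25 and so lay below 6.958, the 25th percentile of all values, in every group.

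The beta1 subunit of soluble guanylyl cyclase, Gucy1b1, was lower in cerebellum than in cortex. Gucy1b1 averaged 13.93 ± 0.10 in WT cortex, 13.51 ± 0.17 in hippocampus and 12.69 ± 0.13 in cerebellum (SD, n = 4 each), and the 3 groups did not overlap. The difference of cerebellum from cortex was -1.24 (SE 0.10, adjusted p = 1.4e-10), that from hippocampus -0.82 (adjusted p = 1.96e-07), which is short of 2-fold. The alpha2 subunit Gucy1a2, which pairs with beta1, followed the same order with 9.70, 9.30 and 8.75, and differed between cerebellum and cortex by -0.95 (adjusted p = 1.28e-05), also short of 2-fold. Gucy1b2, the beta2 subunit, lay below the 25th percentile in every group.

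Of the 5 membrane guanylyl cyclases, Gucy2g was called. Gucy2g, a receptor cyclase known in mouse from the Grueneberg ganglion of the nose, averaged 8.90 ± 0.36 in WT cortex, 8.31 ± 0.24 in hippocampus and 7.51 ± 0.17 in cerebellum, and cerebellum differed from cortex by -1.39 (SE 0.16, adjusted p = 7.79e-08). The receptor of guanylin in the intestine, Gucy2c, was between 7.10 and 7.28 in the WT regions. The olfactory Gucy2d and the retinal Gucy2e and Gucy2f had every group mean below the 25th percentile.

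The 2 cGMP kinases went opposite ways. Prkg1, the kinase known from Purkinje cells and smooth muscle, read 8.66, 8.55, 9.14 and 8.46 in WT cortex and 9.49, 9.92, 9.61 and 9.80 in cerebellum, without overlap. Its difference of 1.00 (SE 0.24, adjusted p = 0.00161) was just past the 2-fold minimum. Prkg2, the membrane-bound kinase, read 8.50, 8.06, 8.45 and 7.89 in cortex and 6.39, 7.05, 7.05 and 6.61 in cerebellum, a difference of -1.46 (SE 0.22, adjusted p = 7.64e-06). Against the hippocampus neither was called: Prkg1 differed by 0.62 (adjusted p = 0.0472) and Prkg2 by -0.94 (adjusted p = 0.00142).

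The largest differences among the 52 genes were those of phosphodiesterases, and they are given by substrate. Outside the photoreceptor family Pde6, whose genes were uncalled and are given apart, the phosphodiesterases specific for cGMP were Pde5a and Pde9a. Both were higher in cerebellum than in either forebrain region. Of the 7 specific for cAMP, 3 were lower in cerebellum than in cortex (Pde4a, Pde7b, Pde8b) and 0 were higher. Among the 3 calmodulin-activated enzymes of the Pde1 family, which answer to calcium, Pde1a and Pde1b were lower and Pde1c was higher. The 5 that accept both nucleotides divided too, with Pde2a lower and Pde3b higher in cerebellum.

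Pde1a gave the largest difference among the 52 genes. Its WT values were 14.42, 14.33, 14.42 and 14.28 in cortex, 14.48, 14.32, 13.90 and 14.40 in hippocampus, and 7.19, 7.63, 8.13 and 7.56 in cerebellum. Every cerebellar array lay far below every forebrain array. Cerebellum differed from cortex by -6.74 (SE 0.34, adjusted p = 4.22e-14) and from hippocampus by -6.65.

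Pde1c had the reverse pattern, with 8.60, 8.89, 8.87 and 9.12 in cortex, 8.79, 9.05, 8.96 and 9.23 in hippocampus, and 13.52, 12.93, 12.99 and 13.51 in cerebellum. Cerebellum exceeded cortex by 4.37 (SE 0.27, adjusted p = 1.21e-12) and hippocampus by 4.23. Pde1b averaged 13.32 ± 0.51 in cortex, 13.05 ± 0.62 in hippocampus and 10.27 ± 0.26 in cerebellum, a difference of -3.05 (SE 0.34) from cortex.

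Pde2a, which cGMP stimulates to break down cAMP, read 14.49, 14.47, 14.76 and 14.10 in cortex, 14.48, 14.46, 13.99 and 14.67 in hippocampus, and 10.49, 10.56, 10.88 and 10.58 in cerebellum. Its cerebellar arrays all lay below the others, and the difference from cortex was -3.83 (SE 0.18, adjusted p = 7.89e-15), that from hippocampus -3.77. The enzymes of the Pde3 family, which cGMP inhibits, did not go together. Pde3b was higher in cerebellum than in cortex by 1.98 (SE 0.19) and than in hippocampus by 1.81. Pde3a differed by 0.29 (adjusted p = 0.0879) and 0.40 (adjusted p = 0.0175) and was not called.

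Pde5a, the cGMP enzyme that sildenafil inhibits, read 9.61, 9.52, 9.30 and 9.53 in cortex, 9.38, 9.56, 9.25 and 9.33 in hippocampus, and 13.00, 12.85, 12.61 and 13.16 in cerebellum. Forebrain values overlapped each other and lay below every cerebellar one: the difference was 3.42 (SE 0.27, adjusted p = 1.98e-10) against cortex and 3.53 against hippocampus. Pde9a, the cGMP enzyme of highest affinity, averaged 10.79 ± 0.35, 10.93 ± 0.15 and 13.07 ± 0.12 in the same order, so cerebellum exceeded cortex by 2.28 (SE 0.21) and hippocampus by 2.14.

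The promoters of the 4 genes with the largest differences between cerebellum and the forebrain are shown because Pde1a and Pde2a were low and Pde1c and Pde5a high in the same tissue. Each is the window from 250 bases before to 50 bases after the gene's most upstream start in RefSeq on build GRCm38.p6, written 5′ to 3′ on the strand of the gene. Capitals mark the motifs searched on both strands: TGACGTCA, the full cAMP response element, TGACG, its shorter form, which lies within it, GGGCGG, a GC box, and the E-boxes CAGCTG and CAGATG. The windows are chr2:80129363-80129662 on the minus strand for Pde1a, chr7:101421441-101421740 on the plus strand for Pde2a, chr6:56369585-56369884 on the minus strand for Pde1c and chr3:122728908-122729207 on the plus strand for Pde5a.
Pde1a: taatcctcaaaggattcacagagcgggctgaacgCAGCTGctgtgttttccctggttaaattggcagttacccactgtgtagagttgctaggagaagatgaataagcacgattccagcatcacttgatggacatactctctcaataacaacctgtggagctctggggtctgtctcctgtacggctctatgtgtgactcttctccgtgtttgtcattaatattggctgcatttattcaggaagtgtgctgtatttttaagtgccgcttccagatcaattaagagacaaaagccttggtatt
Pde2a: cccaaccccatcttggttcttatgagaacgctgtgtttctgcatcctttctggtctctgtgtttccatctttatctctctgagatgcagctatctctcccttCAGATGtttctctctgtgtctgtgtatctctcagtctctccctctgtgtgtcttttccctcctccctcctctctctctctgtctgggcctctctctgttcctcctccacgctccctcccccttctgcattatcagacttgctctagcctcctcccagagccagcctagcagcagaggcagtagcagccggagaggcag
Pde1c: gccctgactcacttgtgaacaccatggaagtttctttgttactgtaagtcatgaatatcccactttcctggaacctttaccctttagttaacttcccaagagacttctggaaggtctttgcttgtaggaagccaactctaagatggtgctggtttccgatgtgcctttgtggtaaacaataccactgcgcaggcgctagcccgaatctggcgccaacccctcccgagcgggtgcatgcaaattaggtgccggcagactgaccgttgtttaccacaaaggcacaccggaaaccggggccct
Pde5a: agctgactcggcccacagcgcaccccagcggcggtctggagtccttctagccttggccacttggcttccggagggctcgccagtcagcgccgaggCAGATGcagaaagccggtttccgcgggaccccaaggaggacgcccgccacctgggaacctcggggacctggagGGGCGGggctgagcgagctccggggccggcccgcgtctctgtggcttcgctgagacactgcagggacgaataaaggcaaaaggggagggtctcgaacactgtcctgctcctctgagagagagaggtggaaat

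Their GC content was 44.3% for Pde1a, 53.3% for Pde2a, 51.3% for Pde1c and 66.3% for Pde5a. RefSeq windows were found for 39 of the 52 genes, 78 windows in all, since many of the genes have several starts (Pde2a has 5, Pde1a 4 and Pde1c 3). Motifs absent from the window shown were found in other windows of the same gene. These were TGACG and CAGATG for Pde1a, TGACG and GGGCGG for Pde2a, and CAGCTG for Pde1c. The full cAMP response element was in 2.56% of the 78 windows, both of Prkar1a, against 1.79% of all 32851 promoter windows. TGACG was in 25.6% (all windows 20.8%), GGGCGG in 42.3% (35.7%), CAGCTG in 21.8% (16.3%) and CAGATG in 21.8% (17.2%). A match is a run of letters in the reference, and no binding was measured.

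**Figure D2:**
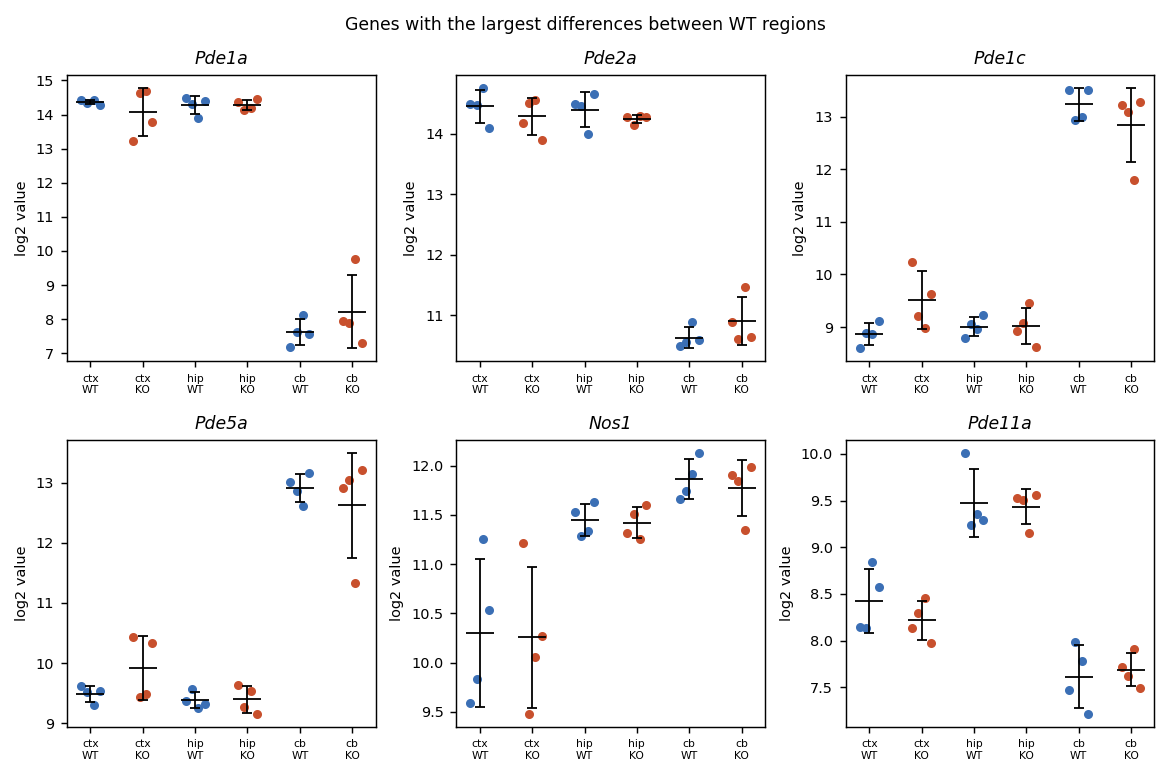
Log2 values of Pde1a, Pde2a, Pde1c, Pde5a, Nos1 and Pde11a on each array (points), with the mean and SD of each group of 4 (bars), by region (ctx cortex, hip hippocampus, cb cerebellum) and genotype (blue WT, red KO). Pde1a and Pde2a are low in both cerebellar groups, Pde1c and Pde5a are high there, Nos1 is lowest in cortex and Pde11a is highest in hippocampus.

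Pde11a, an enzyme of both nucleotides known from the hippocampal formation, was the phosphodiesterase called higher in hippocampus than in cortex. It read 8.15, 8.14, 8.84 and 8.57 in WT cortex, 10.01, 9.24, 9.35 and 9.29 in hippocampus and 7.47, 7.98, 7.78 and 7.22 in cerebellum, with no overlap between groups. Hippocampus exceeded cortex by 1.05 (SE 0.18, adjusted p = 0.000477) and cerebellum differed from hippocampus by -1.86 (adjusted p = 6.91e-09). Its difference from cortex fell short of 2-fold without WT 1 of hippocampus (0.87) and without WT 1 (0.96) or WT 2 (0.95) of cortex, with adjusted p between 0.003673 and 0.003973. Pde10a, the enzyme best known from striatal neurons, averaged 14.27, 13.67 and 14.19, and no pair of regions was called.

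Of the cAMP-specific enzymes, Pde4a (a target of rolipram) averaged 12.52 in WT cortex, 12.29 in hippocampus and 10.82 in cerebellum and differed between cerebellum and cortex by -1.71 (SE 0.16). Pde8b, a rolipram-insensitive enzyme of high affinity, differed by -2.18 (SE 0.16) from cortex and -1.78 from hippocampus. Pde7b differed from cortex by -1.48 (SE 0.23) and from hippocampus by -0.69, and Pde8a from hippocampus alone by -1.08 (adjusted p = 0.0161), with -0.60 against cortex (adjusted p = 0.196). Pde4b, Pde4c and Pde7a differed between cerebellum and cortex by -0.45 (adjusted p = 0.00478), -0.18 (0.345) and 0.29 (0.106). All 6 subunit genes of the photoreceptor family Pde6 were uncalled, and Pde6b, Pde6c and Pde6g lay below the 25th percentile in every group.

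Adenylyl cyclases were split by isoform. Adcy1, stimulated by calcium and calmodulin, read 13.60, 13.77, 13.01 and 13.30 in WT cortex, 13.57, 13.32, 13.45 and 12.78 in hippocampus and 14.58, 14.15, 14.40 and 14.61 in cerebellum. All cerebellar arrays were above all others, by 1.02 over cortex (SE 0.29, adjusted p = 0.0058) and 1.15 over hippocampus. Adcy8, which calcium also stimulates, averaged 11.38, 10.84 and 11.42, and no pair passed.

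Adcy2, stimulated by G protein beta-gamma subunits, averaged 13.18 ± 0.19 in WT cortex, 12.97 ± 0.13 in hippocampus and 9.98 ± 0.37 in cerebellum, a difference of -3.19 (SE 0.21, adjusted p = 5.84e-12) from cortex. The calcium-inhibited Adcy5, known from striatum, averaged 11.41, 11.43 and 9.49, and its relative Adcy6 11.03, 10.74 and 10.09. Adcy5 differed by -1.92 (SE 0.22) and was called. The other differences from cortex were -0.94 for Adcy6 (adjusted p = 4.36e-07), -0.76 for Adcy3, the isoform of neuronal cilia (9.08e-06), and -0.52 for Adcy9 (0.00143), all short of 2-fold. The bicarbonate-activated Adcy10 lay below the 25th percentile.

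Protein kinase A differed through its regulatory subunits. Prkar2b, the RII-beta subunit of neurons and fat, averaged 12.28 ± 0.12 in WT cortex, 11.66 ± 0.40 in hippocampus and 9.67 ± 0.36 in cerebellum, a difference of -2.62 from cortex (SE 0.23, adjusted p = 1.27e-09) and -1.99 from hippocampus. Prkar1b, the neuronal RI-beta subunit, averaged 14.76 ± 0.12, 14.39 ± 0.13 and 13.27 ± 0.12, with differences of -1.49 (SE 0.16) and -1.12. Their widely expressed relatives Prkar1a and Prkar2a were not called, with cerebellum minus cortex at -0.04 and -0.08 and cerebellum minus hippocampus at -0.18 and -0.13. The catalytic subunit Prkacb differed between cerebellum and cortex by -0.99 (adjusted p = 1.11e-06), just short of 2-fold, and Prkaca by 0.14 (adjusted p = 0.42).

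Some of these genes moved with markers of the striatum among the hippocampal arrays. The mean of the 11 measured striatal markers was 9.70, 10.75, 10.93 and 10.70 in the 4 WT cortex arrays and 9.57, 9.55, 10.52 and 11.03 in the WT hippocampus arrays. Pde1b read 12.63, 13.30, 13.83 and 13.52 in those cortex arrays and 12.73, 12.36, 13.45 and 13.68 in those of hippocampus. Hippocampal Pde7b was 11.29, 10.52, 11.80 and 12.02, and hippocampal Adcy5 11.29, 11.05, 11.51 and 11.85. For all 3 genes the pair of hippocampal arrays with more striatal marker signal had the higher values. In WT cortex Adcy5 read 10.99, 11.48, 12.00 and 11.16 and Pde7b 12.36, 12.52, 11.80 and 12.12, so the array with the most striatal signal was highest for Adcy5 and lowest for Pde7b. Cerebellar striatal marker means were 9.14 to 9.62 in WT. The part of such tissue in the regional differences was not tested.

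The KO animals shared no array with the WT animals and gave the regional pattern again. Between hippocampus and cortex the same 2 genes were called (all genes 1.85%), Nos1 with 1.17 and Pde11a with 1.22. Without KO 1 and KO 4 of cortex these were 1.65 and 1.06 and Pde7b was called as well (-1.08), where 1.86% of all genes were called. Between cerebellum and cortex 17 were called (all genes 8.21%), all of them among the 20 of WT, a share of 85% of the WT calls where 72.6% of the WT calls of all genes recurred. Adcy1 (0.96, adjusted p = 0.0106), Prkar1b (-0.92) and Prkg1 (0.72) passed the adjusted p and fell short of 2-fold. Between cerebellum and hippocampus 13 were called (all genes 8.12%), of which 12 were among the 16 of WT, a share of 75% against 74.9% for all genes. Adcy9 was called in KO with -1.13 and differed in WT by -0.78, and Adcy1, Pde8a, Prkar1b and Prkar2b were called in WT and not in KO. Without KO 3 of cerebellum 15 genes were called in this pair (all genes 9.48%), Prkar2b with -1.14 in place of -0.87 and Pde10a with 1.16 in place of 0.75. Adcy1 then differed by 0.93 in place of 0.53, Pde8a by -0.84 in place of -0.36 and Prkar1b by -0.55 in place of -0.41, all short of 2-fold. With all arrays, every difference called in WT had the same sign in KO. Without KO 1 and KO 4 of cortex and KO 3 of cerebellum 18 genes were called between cerebellum and cortex, where 10% of all genes were.

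Individual KO arrays moved some of these values. Pde1a read 7.93, 7.88, 9.76 and 7.29 in the KO cerebellum and 13.23, 14.64, 14.69 and 13.77 in the KO cortex, so KO 3 of cerebellum and KO 1 and KO 4 of cortex each lay towards the other region. Pde5a did the same, with 12.91, 13.04, 11.33 and 13.22 in cerebellum and 10.43, 9.44, 9.49 and 10.33 in cortex. Its difference between cerebellum and cortex was 2.70 in KO and 3.42 in WT, and 3.59 in KO without those 3 arrays.

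**Figure D3:**
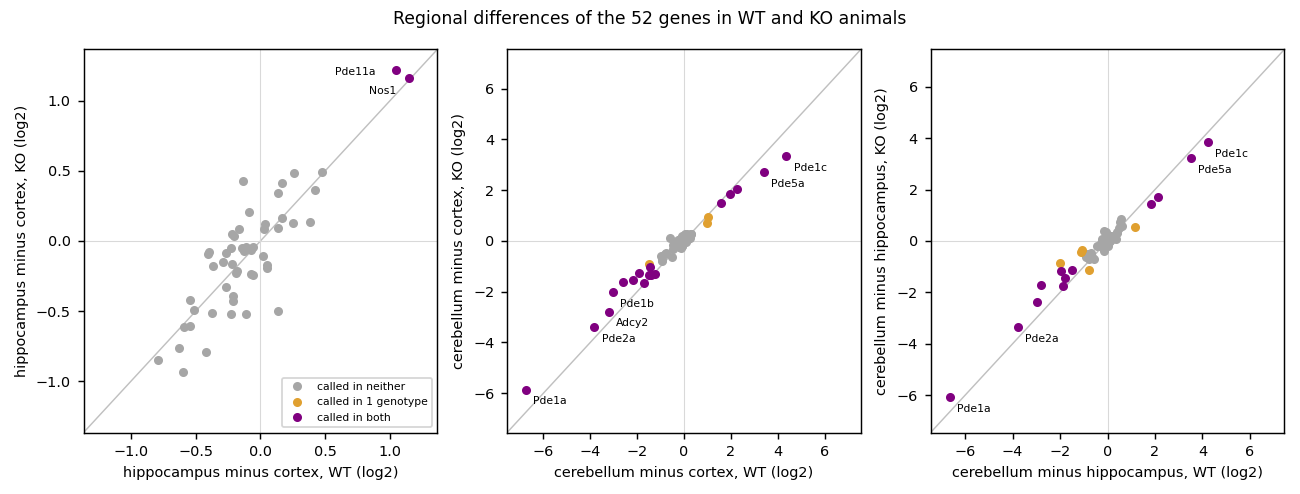
Difference between 2 regions in KO animals (vertical, log2) against the same difference in WT animals (horizontal, log2) for the 52 genes, with the line of equality; panels show hippocampus minus cortex, cerebellum minus cortex and cerebellum minus hippocampus. Purple genes were called in both genotypes, yellow ones in 1, and each called gene lies on the same side of 0 in both.

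A wider list of the pathway, with NO synthase partners, natriuretic peptides and their receptors, cyclic nucleotide channels, anchoring proteins, kinase inhibitors, CREB factors, G proteins and calmodulin kinases, had 63 measured genes of 68. Between cerebellum and cortex 15 of them were called (23.8%, all genes 9.98%), 6 higher and 9 lower. The largest was Ppp1r17, a substrate of cGMP kinase in Purkinje cells and also 1 of the cerebellar markers used above, which averaged 5.77 ± 0.21 in WT cortex and 12.77 ± 0.17 in cerebellum, a difference of 7.00 (SE 0.29, adjusted p = 6.78e-16). Pkib, an inhibitor of protein kinase A, was higher by 2.49 and Camk4, a calmodulin kinase of granule cells, by 2.37. Camk2a, the calmodulin kinase of forebrain synapses, differed by -5.28, Akap5, the anchor that binds RII subunits at synapses, by -3.14 and Arpp19, a small target of protein kinase A, by -2.27. Against hippocampus 15 were also called (23.8%, all genes 9.83%), with 7.06 for Ppp1r17, 2.86 for Camk4, 2.44 for Pkib, -5.36 for Camk2a, -2.82 for Akap5 and -2.18 for Npr3, the clearance receptor of natriuretic peptides. Between hippocampus and cortex 3 were called (4.76%, all genes 1.36%): Akap13 (1.21), Arpp19 (-1.40) and Arpp21 (-1.06).

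KO against WT was compared in each region to ask whether the loss of the liver enzyme alters the pathway in the brain. limma called 0 of the 52 genes in cortex, hippocampus and cerebellum alike, and also 0 of all 19572 genes, so the percentage called among all genes was 0 in each. At an unadjusted p under 0.05 there were 2 of the 52 in cortex (all genes 7.45%), 0 in hippocampus (2.11%) and 10, or 19.2%, in cerebellum (9.5%). The median absolute difference over the 52 genes was 0.11 in cortex and 0.06 in hippocampus, where all genes had 0.11 and 0.08, and 0.22 in cerebellum, where all genes had 0.12. The largest absolute difference was 0.64 in cortex, 0.33 in hippocampus and 1.05 in cerebellum. Averaged over regions 0 genes passed and 6 had an unadjusted p under 0.05 (all genes 7.41%). Without KO 1 and KO 4 of cortex and KO 3 of cerebellum 5 had one (all genes 4.54%): Adcy8, Gucy1b1, Nos2, Pde6a and Pde8b. The test of whether the genotype effect differs between regions also called 0, with 6 at that unadjusted level (5.09%).

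In the cortex the smallest p belonged to Gucy1b1, the beta1 subunit of the NO receptor. Gucy1b1 read 13.96, 14.06, 13.85 and 13.85 in WT and 14.22, 14.24, 14.13 and 14.40 in KO. All 4 KO arrays lay above all 4 WT arrays, which was so for 1 of the 52 genes in either direction (all genes 3.68%). The difference was 0.32 (SE 0.10, unadjusted p = 0.00358, adjusted p = 0.463), and 0.26 without KO 1 and KO 4. In the hippocampus Gucy1b1 differed by -0.05 and in the cerebellum by 0.24 (SE 0.10, adjusted p = 0.463), with WT arrays at 12.73, 12.52, 12.84 and 12.67 and KO arrays at 12.88, 12.92, 13.02 and 12.90. The cerebellar groups did not overlap either, and the difference was 0.21 without KO 3.

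Next in the cortex came Pde1c, with 8.60, 8.89, 8.87 and 9.12 in WT and 10.24, 9.22, 8.98 and 9.62 in KO. Its 2 highest arrays were KO 1 and KO 4, those with olfactory bulb markers, and the difference went from 0.64 (SE 0.27, adjusted p = 0.605) to 0.23 without them. Adcy1 read 12.06, 13.38, 13.12 and 12.85 in KO cortex, a difference of -0.56 (adjusted p = 0.7) with all arrays and -0.17 without those 2. Pde6h, the inhibitory subunit of cone photoreceptors, read 9.31, 9.21, 9.25 and 9.42 in WT and 9.01, 9.26, 9.15 and 8.87 in KO, and differed by -0.23 (adjusted p = 0.714) and, without those 2, by -0.09.

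Leaving out KO 1 and KO 4 brought other genes forward, in a fit where the KO cortex group held only 2 arrays, KO 2 and KO 3. Adcy8 read 11.64, 11.32, 10.94 and 11.65 in WT cortex and 12.28, 10.37, 10.73 and 11.72 in KO, so that its 2 high KO arrays were the 2 with olfactory bulb markers. Its difference was -0.11 (SE 0.27) with all arrays and -0.83 (SE 0.21, unadjusted p = 0.000669, adjusted p = 0.999) without them. Adcy6 went from -0.16 to -0.32, and Nos1, which read 11.21, 9.48, 10.06 and 10.27 in KO, from -0.05 to -0.53. WT cortex arrays ran from 9.59 to 11.25 for Nos1, so KO 3 still lay among them. In that fit 3 of the 52 genes had an unadjusted p under 0.05 (Adcy6, Adcy8, Gucy1b1), where 3.54% of all genes did, and 0 passed the adjustment.

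In the hippocampus the genes of smallest p were Nos2, Pde6a, Gucy2e and Prkar1b, all with an adjusted p of 1.00. Nos2 read 6.03, 5.98, 5.89 and 6.15 in WT and 6.29, 6.19, 6.29 and 6.22 in KO. The groups did not overlap (1 of the 52 genes, all genes 2.17%), and the difference was 0.24 (SE 0.12) at values below the 25th percentile. Pde6a, the alpha subunit of rod photoreceptors, read 7.59, 7.88, 7.48 and 7.85 in WT and 7.47, 7.33, 7.40 and 7.69 in KO, a difference of -0.23. Gucy2e read 6.47, 6.64, 6.50 and 6.28 in WT and 6.73, 6.38, 6.74 and 6.92 in KO, a difference of 0.22. Prkar1b read 14.45, 14.49, 14.20 and 14.42 in WT and 14.24, 14.35, 14.00 and 14.01 in KO, a difference of -0.24. The last 3 overlapped between genotypes.

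In the cerebellum 7 of the 10 genes at an unadjusted p under 0.05 were higher in KO (all genes 5.97%) and 3 lower (3.53%). Those higher were Adcy2, Gucy1b1, Nos2, Pde1b, Pde8b, Prkar1b and Prkar2b. Adcy1, Adcy9 and Pde6h were lower. Prkar2b read 9.67, 9.22, 10.09 and 9.68 in WT and 10.27, 10.41, 11.37 and 10.05 in KO, so 3 KO arrays lay above every WT array. Its difference was 0.86 (SE 0.23, unadjusted p = 0.00116, adjusted p = 0.435), and 0.58 (SE 0.21) without KO 3.

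Pde1b read 10.19, 10.24, 10.64 and 10.03 in WT and 10.94, 10.94, 12.83 and 10.60 in KO, where KO 3 stood alone. The difference was 1.05 (SE 0.34, adjusted p = 0.435) and 0.55 without that array. Adcy2 read 9.73, 9.62, 10.41 and 10.17 in WT and 10.58, 10.29, 11.46 and 10.10 in KO, a difference of 0.62 (SE 0.21) that was 0.34 without KO 3. Prkar1b read 13.37, 13.12, 13.35 and 13.24 in WT and 13.72, 13.63, 14.16 and 13.44 in KO, with no overlap, and its difference of 0.47 (SE 0.16) became 0.33.

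Groups did not overlap in the cerebellum for 5 genes, against 3.5% of all genes: Gucy1b1, Pde7b, Prkacb and Prkar1b were on the higher side in KO (all genes 1.93%) and Adcy9 on the lower (1.57%). Adcy9 read 10.05, 10.09, 10.10 and 10.06 in WT and 9.93, 9.74, 9.55 and 9.80 in KO, a difference of -0.32 (SE 0.12, adjusted p = 0.444), and -0.25 without KO 3. Pde7b differed by 0.27 and Prkacb by 0.24, and without KO 3 by 0.26 and 0.18.

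Most cerebellar differences named here were smaller without the KO 3 array. Beside its brainstem markers, its 7 neocortical markers averaged 9.51 against 8.24 to 8.53 in the other cerebellar arrays. Without it, 4 of the 52 genes had an unadjusted p under 0.05 (Pde1b, Pde8b, Prkar1b, Prkar2b), all higher in KO, where 3.52% of all genes did, and 0 passed the adjustment. Their differences were 0.55, 0.38, 0.33 and 0.58. Adcy1 went from -0.62 to -0.23, Pde1c from -0.39 to -0.04, Pde9a from -0.33 to -0.01, Pde1a from 0.59 to 0.08 and Pde8a from 0.64 to 0.16. The median absolute difference over the 52 genes was then 0.14.

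**Figure D4:**
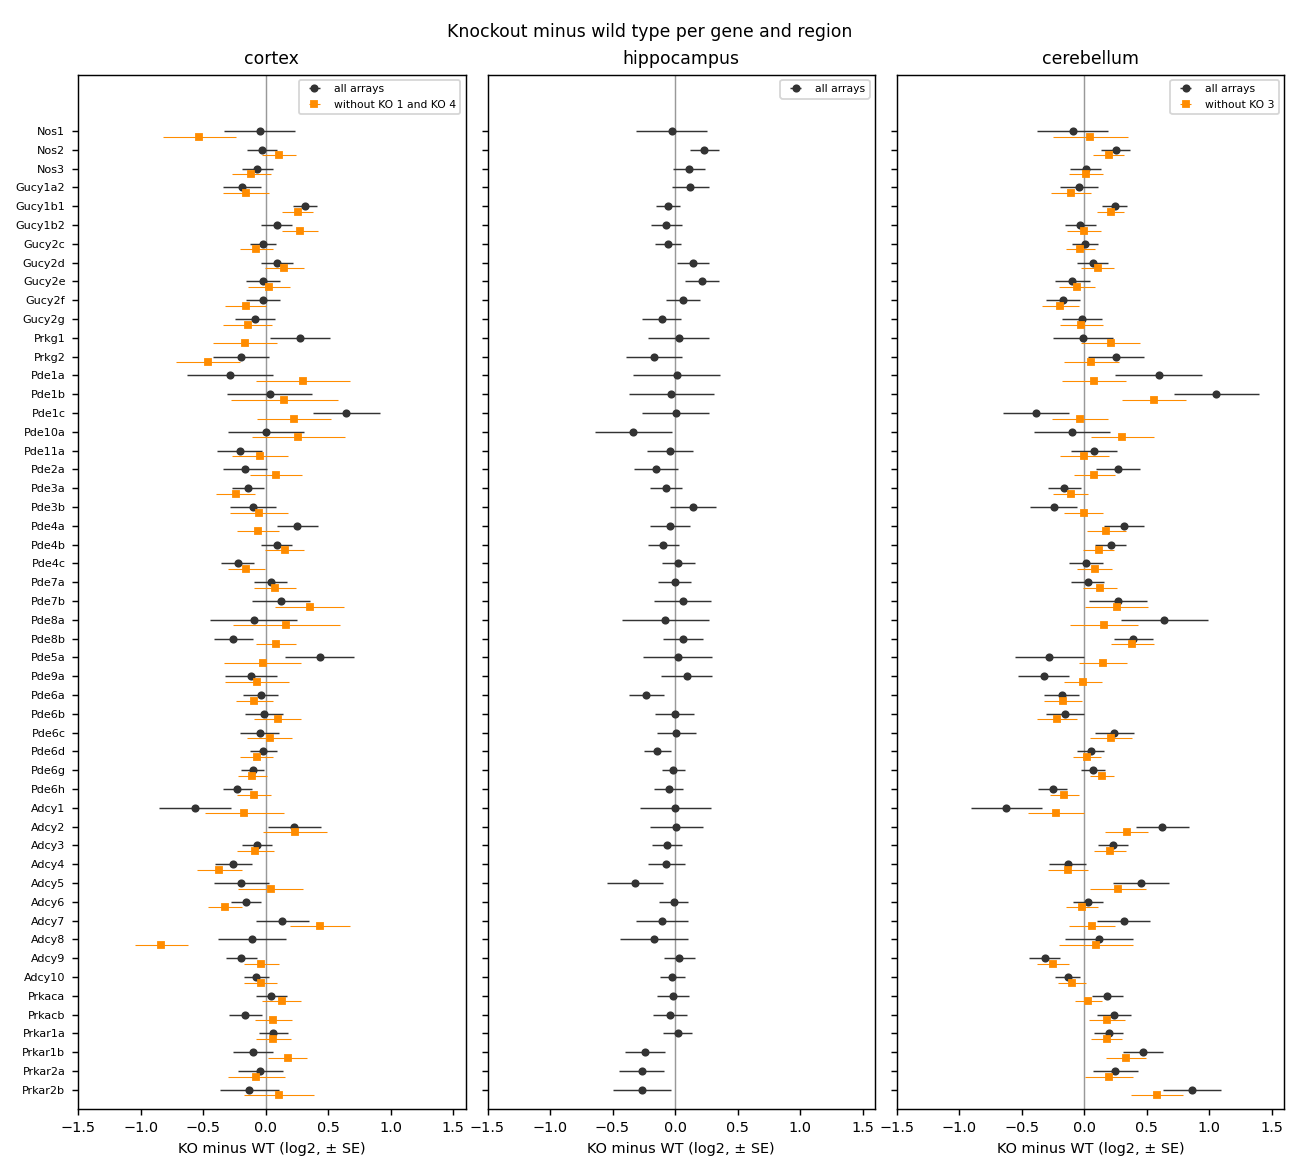
KO minus WT difference (log2, with its SE) of each of the 52 genes in cortex, hippocampus and cerebellum with all arrays (black), and without KO 1 and KO 4 of cortex or KO 3 of cerebellum (orange). In cerebellum Pde1a, Pde1c, Pde8a, Adcy1, Pde1b and Prkar2b all move towards 0 without KO 3, the last pair from 1.05 to 0.55 and from 0.86 to 0.58; in cortex Adcy8 moves from -0.11 to -0.83.

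**Figure D5:**
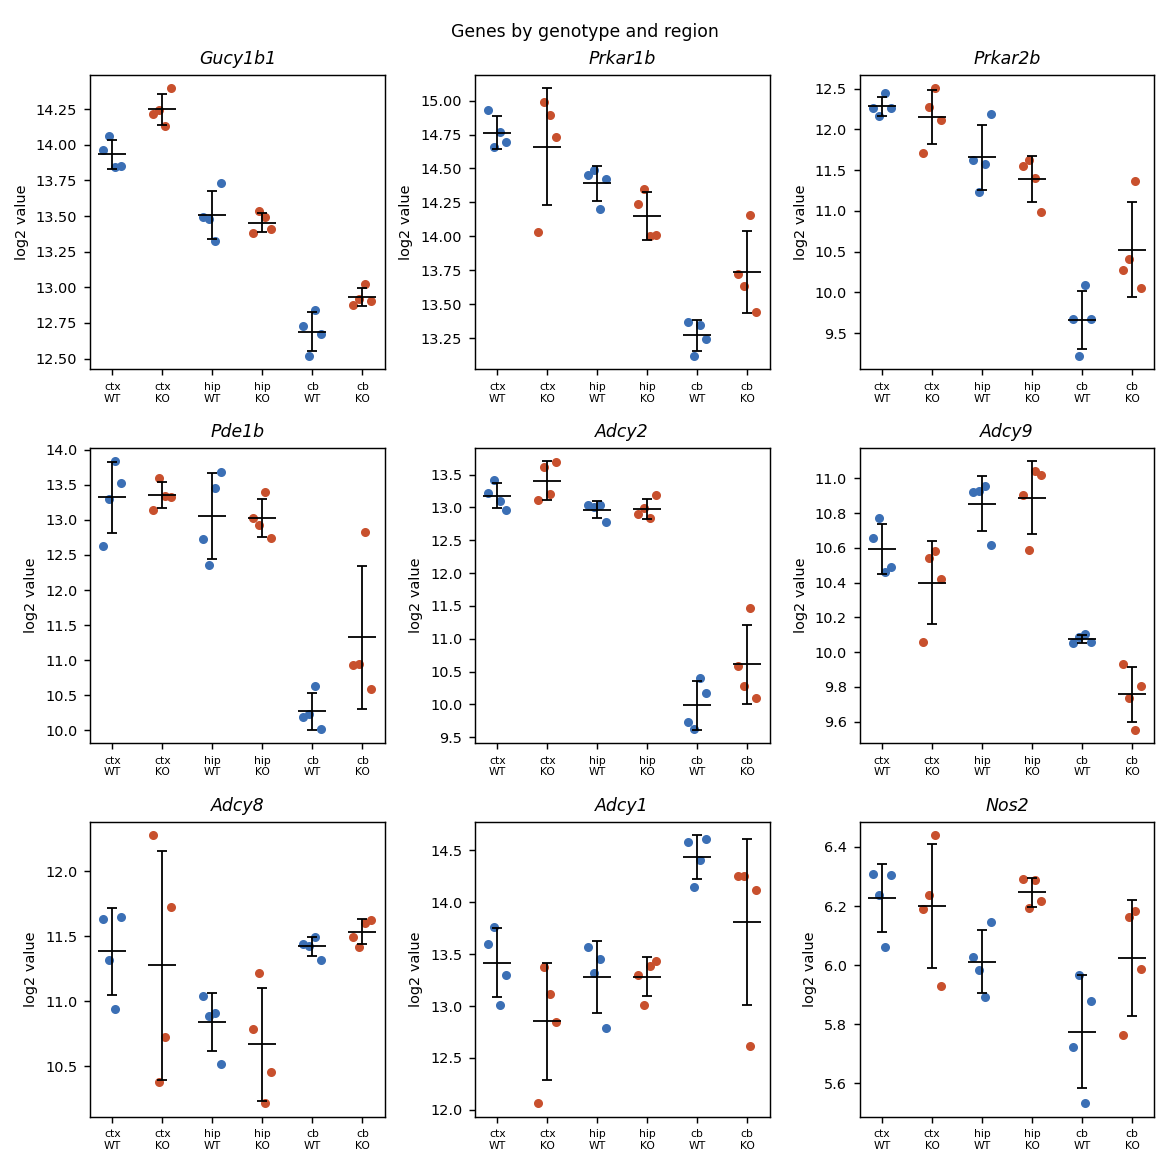
Log2 values of 9 genes on each array (points), with the mean and SD of each group of 4 (bars), by region (ctx cortex, hip hippocampus, cb cerebellum) and genotype (blue WT, red KO). Gucy1b1 lies higher in KO than in WT in cortex and cerebellum with no overlap, none of the differences passed the adjusted threshold, and the spread of Adcy8 in KO cortex runs from 10.37 to 12.28.

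Prkar2b had the smallest p of the 52 genes in the test of unequal genotype effects (unadjusted p = 0.00403, adjusted p = 0.921), with -0.13 in cortex, -0.27 in hippocampus and 0.86 in cerebellum. Without the 3 arrays with foreign markers its cortical difference was 0.11 and its cerebellar one 0.58, and the test of unequal effects gave an unadjusted p of 0.0128 and an adjusted p of 1.00. Prkar1b, Pde8b, Gucy1b1, Pde1c and Adcy5 followed at the unadjusted level with all arrays, and Adcy8, Prkar1b and Prkar2b were the 3 at that level without those 3 arrays (all genes 3.19%). Averaged over the regions, Gucy1b1 differed by 0.17 (SE 0.06), Adcy2 by 0.29, Nos2 by 0.15, Adcy1 by -0.40, Adcy9 by -0.16 and Pde6h by -0.18, each with an adjusted p of 0.661. Without the 3 arrays the averages were 0.14, 0.19, 0.18, -0.13, -0.08 and -0.10 in the same order (adjusted p = 0.996).

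In the wider list limma called 0 of 63 genes in any region, with 6 in cortex (9.52%, all genes 7.45%), 0 in hippocampus (all genes 2.11%) and 7 in cerebellum (11.1%, all genes 9.5%) at an unadjusted p under 0.05. Without KO 1 and KO 4 of cortex 1 was left at that level there (all genes 3.54%), and without KO 3 of cerebellum 5 (all genes 3.52%). The smallest p in cortex belonged to the inhibitory G protein subunits Gnai1 (0.35, adjusted p = 0.427) and Gnai3 (0.37) and to the natriuretic peptide Nppa (0.66). Nppa read 7.68, 7.76, 7.68 and 7.61 in WT cortex and 9.31, 7.74, 7.61 and 8.71 in KO, so its high arrays were KO 1 and KO 4, and without them it differed by -0.01. Gnai1 then differed by 0.21 and Gnai3 by 0.16. In the hippocampus they belonged to Akap13 (-0.36), Arpp21 (-0.28) and Dlg4, the scaffold that ties Nos1 to NMDA receptors (-0.13). In the cerebellum they belonged to Ddah2, an enzyme that degrades inhibitors of NO synthase (-0.33, adjusted p = 0.435), Camk2a (0.51) and Mrvi1, a target of cGMP kinase (-0.33), which were -0.31, 0.41 and -0.31 without KO 3.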

How the data were processed

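The deposited values are log2 values, 1 per transcript cluster and array, which the authors made with RMA per the submitters' processing notes. The version and settings of RMA and the genome build of the array were not stated in the labels or headers. The labels name both biotin and Cy3 as the dye. Array medians ran from 8.719 to 8.816. Of 22206 rows, 2634 carried no gene in the platform annotation and were left out. No dim row was removed, detection above background could not be judged, and the 25th percentile of all values was 6.958. The number of arrays limits the precision.

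The fits used limma 3.58.1 (R 4.3.3, 2-sided tests after lmFit and eBayes) on all 24 arrays with 6 group means and Benjamini-Hochberg adjustment over 19572 rows. In comparisons across regions the animal entered as a random effect through duplicateCorrelation (statmod 1.5.0, consensus correlation 0.00646, kept at that value in the alternatives). WT and KO animals of the same number are different animals, and they were not paired. Correlations of their deviations ran from -0.243 to 0.297, with both ends of the range in different regions (hippocampus and cerebellum). Such correlations cannot settle whether animals of the same number share a batch. Where arrays were left out, the spread came from all remaining arrays. The fits were tested on simulated data.

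The 52 genes, the wider list, the marker lists and the alternatives were chosen with earlier results of these data known. By rule, values of all arrays are given for the 4 genes of largest difference in each WT pair and of smallest p in each KO comparison, and from the wider list the 3 largest each way and the 3 of smallest p are named. The other genes with values of all arrays were chosen after their values were seen.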

Additional observations from a re-analysis of the deposited data

Results flagged for a closer look

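In 22 of the 312 groups of 4 arrays (52 genes in 6 groups) 1 array lay far from the other 3 by Dixon's criterion, where chance gives about 1 in 20. KO 3 of the cerebellum was that array for 9 genes. Its values were low for Adcy1 (12.62), Pde1c (11.8), Pde5a (11.33), Pde9a (11.8) and Pde6g (6.487), and high for Adcy7 (8.544), Pde1b (12.83), Pde8a (10.95) and Prkaca (14.59). Apart from Pde6g, which lies below the 25th percentile, the low genes all stood above the forebrain in WT cerebellum.

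KO 2 of the hippocampus was that array for 4 genes, high for Adcy7 (8.082) and Pde3b (10.76) and low for Gucy2g (7.912) and Pde2a (14.14). WT 4 of the hippocampus was low for Adcy2 (12.77) and Adcy9 (10.62), and WT 4 of the cerebellum for Adcy4 (7.405) and Pde6d (10.43). Single arrays were WT 1 of the hippocampus for Pde11a (10.01, high), KO 3 of the hippocampus for Pde11a (9.152, low), WT 2 of the hippocampus for Pde3a (10.84, high), WT 3 of the cortex for Pde9a (11.32, high) and WT 2 of the cerebellum for Prkacb (14.41, low).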

How the results depend on the processing

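None of the 22 differences of genes chosen by rule changed direction under the alternatives run for it. Over all 52 genes, KO minus WT turned sign without the arrays with foreign markers for 15 genes in cortex (Pde1a from -0.28 to 0.30, Pde5a from 0.43 to -0.02, Prkg1 from 0.27 to -0.17), 7 in cerebellum and 6 in the average over regions, and 0 of the 52 passed limma's adjusted threshold in either fit. The alternatives were a filter on dim rows, centring on array medians, a second quantile normalization, eBayes with trend and robust settings, array weights, the mean of all rows of a symbol (1 row each here), the fit without the 2-fold minimum, fits within a region, fits with and without a replicate block, and fits without single arrays or the arrays with foreign markers. With the adjusted p alone and no 2-fold minimum, the genes called were 7 and not 2 between hippocampus and cortex in WT, 29 and not 16 between cerebellum and hippocampus in WT, and in KO 8 and not 2, 27 and not 17, and 22 and not 13 for hippocampus against cortex, cerebellum against cortex and cerebellum against hippocampus. Leaving out 1 array, the count between hippocampus and cortex ran from 0 to 2 in WT (0 without cortex WT 1 or WT 2, 1 without hippocampus WT 1) and from 1 to 4 in KO (1 without cortex KO 2, 4 without cortex KO 1, which added Pde7b and Pde10a). With all arrays 1.36% of all genes were called in that pair in WT and 1.85% in KO. The shares of all genes in the fits without 1 array are not given here. KO against WT stayed at 0 of the 52 genes in every alternative. With the replicate block on the shared animal numbers it was 0 in each region (35 of all genes in cerebellum, where the fit without the block gave 0), and without the animal as a block the counts between regions stayed at 2, 20 and 16 in WT. The fit without all 3 arrays with foreign markers, and the wider list without them, were chosen after seeing the data. Signals below the 25th percentile, those of 9 of the 52 genes, limit what can be seen there.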
